A study of Mus musculus with 3 samples.

Results

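A set of 9 adhesion genes was followed through RNA sequencing of T-helper 1 (Th1) cells, the CD4 T-cell fate known for making interferon gamma. They are 7 integrin chains (Itgal, Itga4, Itgae, Itgav, Itgb1, Itgb2 and Itgb7) and 2 surface glycoproteins (Selplg and Cd44), chosen by symbol and found as 9 of the 50600 genes counted. All libraries came from 1 group of primary mouse cells of strain C57BL/6NJ with 1 donor record, without any treatment, mutant or other cell type beside it, and the labels give neither sex nor age. Headers of the count files carry a 72 hour time and the word sorted, and the labels link a protocol for differentiating CD4 T cells. The labels call the assay total RNA but name a library protocol for polyadenylated RNA. There were 3 libraries, numbered as biological replicates 1, 2 and 3, and nothing in the labels says whether they came from separate animals or cultures, so the spread between them may be technical.

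Integrins are receptors built from 1 alpha and 1 beta chain, and neither chain reaches the cell surface without a partner. Itgal pairs with Itgb2 to form LFA-1, which binds ICAM proteins on vessel walls and on antigen-presenting cells. Itga4 pairs with Itgb1 to form VLA-4, a receptor for VCAM-1 and fibronectin, or with Itgb7 to form the gut-homing receptor for MAdCAM-1. Itgae encodes CD103, the alpha E chain, which with Itgb7 binds E-cadherin on epithelium, and Itgav pairs with several beta chains to bind vitronectin and latent TGF-beta. Selplg encodes PSGL-1, the protein that selectins grip while a T cell rolls along a vessel wall, and Cd44 binds hyaluronan and serves as a mark of T cells that have met antigen.

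The libraries held 4482916, 266790 and 3733531 counts in replicates 1, 2 and 3, so replicate 2 was by far the shallowest. A gene of 2000 bp with 3 counts stood at 0.717, 11.6 and 0.737 TPM in replicates 1, 2 and 3, where TPM is a level per exon length scaled to the library. Genes whose exons overlap exons on the other strand were 16.2% of the genes and took 51.7%, 55.1% and 66.5% of the counts in these libraries. Every level is that of the strand that was counted. The sources used here do not say which strand the library kit marks, so the counted strand may be the one opposite to the RNA. In that case levels of genes without an overlap would also come from the strand opposite to their RNA. Levels of overlapped genes may hold fragments of their partners. Whether the counted strand is that of the RNA was not tested. The Th1 and CD4 T-cell markers Cd4, Trac, Ifng, Tbx21 and Cd3e were all above 10 TPM on average, 5 of 5. Cd3e had 292, 1 and 157 counts, only 1.90 TPM in replicate 2, and is overlapped on the other strand by Gm48719. Of 14 markers of other cells, 14 were below 1 TPM and 10 had no count in any library, among them Lyz2 and Cd8a. Their summed level was 2.49, 0 and 1.91 TPM in replicates 1, 2 and 3, against 1410 TPM, 1208 TPM and 650.2 TPM for the 5 Th1 and CD4 markers. As these are bulk libraries, fewer cells of a kind and less RNA per cell cannot be told apart.

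All 9 adhesion genes had a mean of at least 1 TPM, and 7 of 9 had at least 10 TPM. The exceptions were Itgae and Itgav. Without replicate 2 the mean of Itga4 was 8.68 TPM, which left 6 of 9. These levels depend on which genes the scaling covers. Scaled over genes without an overlap, Itgae averaged 25.3 TPM and Itgav 16.6 TPM, and scaled over protein-coding genes 15.9 TPM and 10.2 TPM, so that 9 of 9 had at least 10 TPM on either scale. Among 21764 protein-coding genes, 47.8% reached 1 TPM and 27.3% reached 10 TPM. The median of the 9 means was 25.4 TPM, beside 0.634 TPM over the protein-coding genes. The share of all counts that fell on the 9 genes was 0.108%, 0.0881% and 0.0789%.

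**Figure D1:**
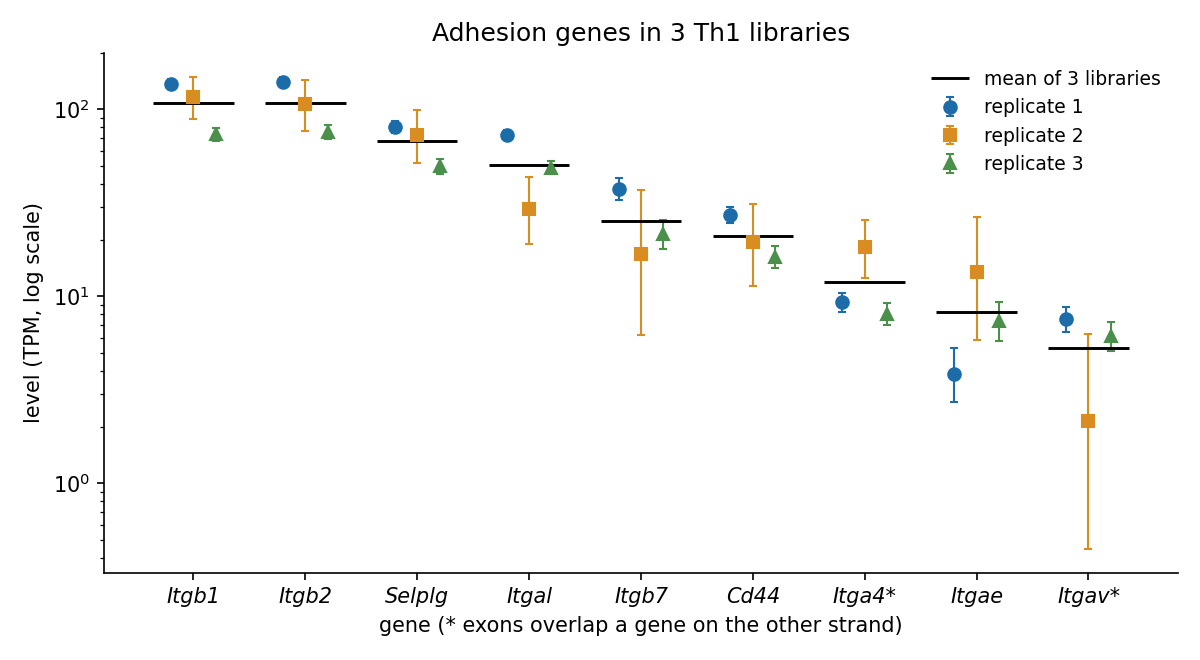
Level in TPM on a log axis for the 9 adhesion genes, ordered by mean, with 1 symbol per library (replicates 1, 2 and 3), its 95% Poisson interval as a bar and the mean as a black line. Itgb1 and Itgb2 lie highest, near 100 TPM, and Itgav lies lowest with a mean of 5.28 TPM; the wide bars are those of replicate 2.

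The beta chains Itgb1 and Itgb2 had the highest mean levels of the 9, and Itgb7 had rank 5. Itgb1, the common partner of many alpha chains (chromosome 8 from 128685654 to 128733200, plus strand, 17 exon blocks), had 1166, 61 and 612 counts in replicates 1, 2 and 3. That made 137, 116 and 73.6 TPM, a mean of 109 ± 32.1 TPM (SD, n = 3), above 96.3% of protein-coding genes. Itgb2, the beta chain of leukocyte integrins (chromosome 10 from 77530252 to 77565708, plus strand), had 894, 42 and 471 counts, or 140.1, 107 and 75.8 TPM, with a mean of 107 ± 32.2 TPM (SD, n = 3). Itgb1 and Itgb2 were both highest in replicate 1 and lowest in replicate 3. Itgb7, the beta chain of gut-homing integrins (chromosome 15 from 102215995 to 102231935, minus strand), was lower, with 216, 6 and 120 counts. Its levels were 37.7, 16.9 and 21.5 TPM, and the 6 counts of replicate 2 allow 6.21 to 36.8 TPM (95% exact Poisson interval, counting error only). The mean was 25.4 ± 10.9 TPM (SD, n = 3). None of these 3 genes shares exon bases with a gene on the other strand.

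Itgb2 and Itgb7 are related in sequence, so the stretch around the longest run they share exactly is shown. Beside it stands the stretch of Itgb1 with the most bases equal to Itgb2. The stretch codes for the part of the cytoplasmic tail next to the membrane. A run of bases within the capitals alone does not tell Itgb2 and Itgb7 apart. The capitals mark the 26 bases that Itgb2 and Itgb7 share exactly, the longest run shared by any of the 36 pairs among the 9 coding sequences (median 12 bases). Each line holds 80 coding bases, read 5′ to 3′ from GENCODE mouse release 21 transcripts on GRCm38.

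Itgb2 (chromosome 10, 77564739 to 77565191, plus strand, spanning an intron): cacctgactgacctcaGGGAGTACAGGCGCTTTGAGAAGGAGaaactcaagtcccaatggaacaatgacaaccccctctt

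Itgb7 (chromosome 15, 102216254 to 102216537, minus strand, spanning an intron): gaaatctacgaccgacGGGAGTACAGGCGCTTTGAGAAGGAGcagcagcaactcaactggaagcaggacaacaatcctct

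Itgb1 (chromosome 8, 128726121 to 128732036, plus strand, spanning an intron): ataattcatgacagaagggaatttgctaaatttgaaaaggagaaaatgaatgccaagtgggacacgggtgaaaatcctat

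Over this window Itgb7 matched Itgb2 at 51 of 80 bases and Itgb1 matched Itgb2 at 41 of 80 bases. For 7 of the 9 genes, no 50-base word of the longest coding transcript occurred in a transcript of any other gene. The exceptions were Itgb2, where 34 words (1.16%) also occurred in the transcript Gm14699, and Itga4, where 1056 words (10.9%) did, 1029 of them in Cerkl on the other strand. The sources used here do not state the read length.

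Among alpha chains, Itgal led. Itgal, the alpha chain of LFA-1 (chromosome 7 from 127296260 to 127335138, plus strand, 32 exon blocks), had 999, 25 and 653 counts. Its levels were 72.7, 29.5 and 48.8 TPM in replicates 1, 2 and 3, with a mean of 50.3 ± 21.7 TPM (SD, n = 3). Replicate 2 was the lowest, and its interval of 19.1 to 43.5 TPM lay below the levels of the other libraries. Itga4, the alpha chain of VLA-4 (chromosome 2 from 79255426 to 79333123, plus strand), had 272, 33 and 229 counts, or 9.31, 18.3 and 8.04 TPM, and here replicate 2 was the highest. The mean was 11.9 ± 5.58 TPM (SD, n = 3).

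Itgae, the alpha E chain or CD103 (chromosome 11 from 73090583 to 73147446, plus strand), had 37, 8 and 69 counts. Its levels were 3.86, 13.5 and 7.40 TPM, a mean of 8.26 ± 4.88 TPM (SD, n = 3), and replicate 1 was the lowest. Haspin, a kinase gene on the minus strand from 73135485 to 73138294, lies inside an intron of Itgae, shares no exon base with it and had 99, 2 and 52 counts; it was added after its values were seen. Itgav (chromosome 2 from 83724397 to 83806916, plus strand) had 170, 3 and 134 counts, or 7.57, 2.16 and 6.12 TPM. The 3 counts of replicate 2 allow 0.446 to 6.32 TPM. The mean of 5.28 ± 2.80 TPM (SD, n = 3) was the lowest of the 9.

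Itga4 and Itgav were the 2 genes with an overlap on the other strand. Itga4 shares 1124 exon bases, 8.04% of its exon length, with Cerkl on the minus strand, from 79330543 to 79330761 and from 79331752 to 79332656, all in the annotated untranslated part of Itga4. Cerkl, known for its role in the retina, had 594, 77 and 663 counts, more than Itga4 in each library. Itgav shares 634 bases, 5.90% of its exon length, with the noncoding gene Gm13684 from 83738553 to 83739186, in neither coding nor untranslated annotation of a coding transcript of Itgav. Gm13684 had 11, 1 and 38 counts. The part of these overlaps in the levels of Itga4 and Itgav was not tested.

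Set beside every other integrin gene, the 4 alpha chains among the 9 made up most of the alpha level. Of the TPM summed over 18 alpha chains they held 82.8%, 83.6% and 84.3% in replicates 1, 2 and 3. Itgal alone held 64.5%, 38.8% and 58.5%, so the share in replicate 2 was the lowest. Itga4 held 8.25%, 24.1% and 9.64% and Itgae 3.42%, 17.8% and 8.86%, both highest in replicate 2. Of the TPM summed over 8 beta chains, Itgb2 held 43.8%, 44.5% and 43.2% and Itgb1 42.7%, 48.4% and 42.0%. The 3 beta chains among the 9 together held 98.2%, 100% and 97.4%. The summed beta level exceeded the summed alpha level 2.84-fold, 3.15-fold and 2.104-fold in replicates 1, 2 and 3.

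**Figure D2:**
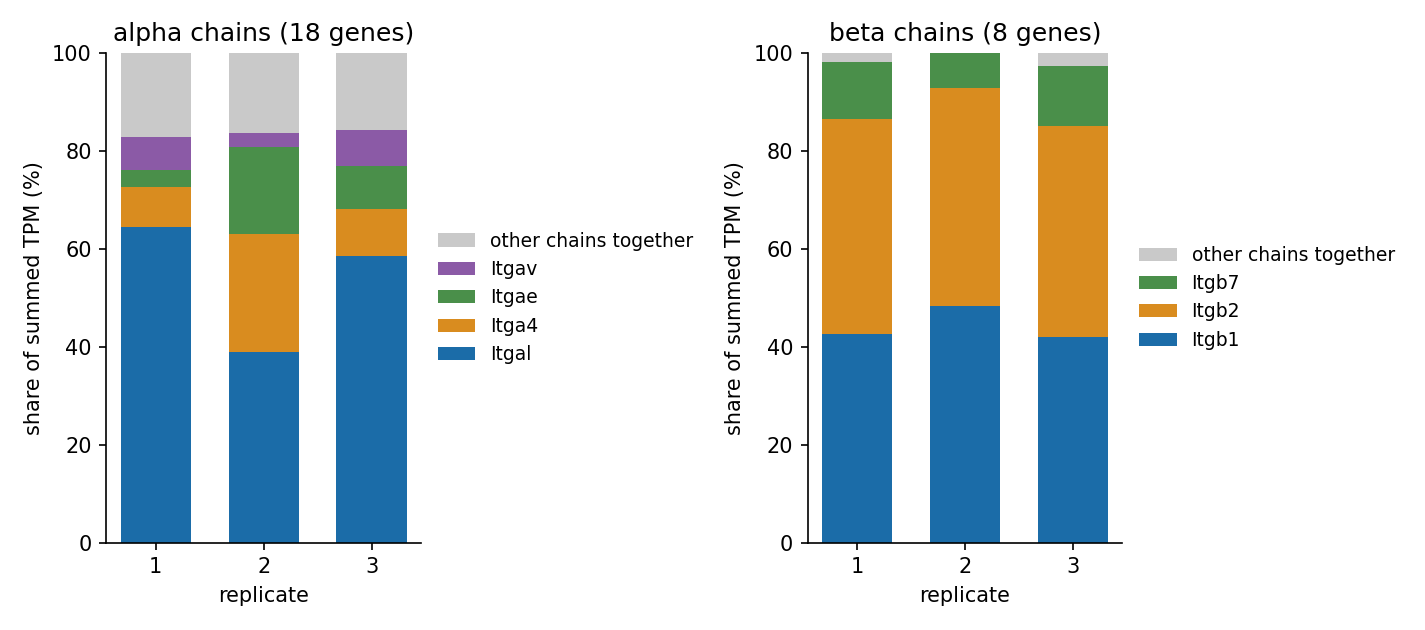
Share of the summed TPM of 18 alpha chain genes (left) and 8 beta chain genes (right) in each library, as stacked bars from 0 to 100%. Itgal takes 64.5%, 38.8% and 58.5% of the alpha level, and Itgb1 and Itgb2 take nearly equal parts of the beta level in every library.

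Of the other 14 alpha chains 4 reached 1 TPM and 10 were below. The highest were Itga5, a fibronectin receptor chain, at 6.46 ± 1.79 TPM, Itga6, a laminin receptor chain, at 3.42 ± 1.49 TPM and Itga3 at 2.48 ± 0.596 TPM (SD, n = 3 each). Itga5 thus had a higher mean than Itgav, while Itgav was higher than Itga5 in replicate 3 alone, at 6.12 TPM against 5.64 TPM. Itgam, Itgax and Itgad, the other alpha chains that pair with Itgb2 and are known from myeloid cells, had 0, 1 and 2 counts over all libraries. For Itgam, 68.7% of the exon length is shared with Gm49368 on the same strand, where a fragment may be left uncounted. Of the other 5 beta chains, Itgb3 (1.31 ± 1.34 TPM) and Itgb4 (1.17 ± 1.02 TPM) reached 1 TPM, and none had a count in replicate 2. Without replicate 1 this held for 0 of 5, without replicate 2 for 3 of 5 and without replicate 3 for 1 of 5. In replicate 2 a level worth 3 counts was 2.099 TPM for Itgb8 and 6.91 TPM for Itgb5, so lower levels could be missed at this depth.

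The levels of the chains that join were compared within each library by limma, as the log2 ratio of TPM + 1 of every gene to a beta chain, with Benjamini-Hochberg adjustment over the 10407 genes tested. Against Itgb2, 89.6% of the genes tested passed at an adjusted p under 0.05, nearly all of them lower than Itgb2, and 89.7% did against Itgb1, so a call there says little of a single gene. Itgal was lower than Itgb2 in 3 of 3 libraries, by log2 ratios of -0.94, -1.82 and -0.62, a mean of -1.13 ± 0.62 (SD, n = 3; limma, adjusted p = 0.0281). The call was lost without replicate 1 (limma, adjusted p = 0.0972) and without replicate 3 (limma, adjusted p = 0.0537).

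Itga4 was below Itgb1 by -3.74, -2.60 and -3.04, a mean of -3.13 ± 0.58 (SD, n = 3; limma, adjusted p = 0.00141), which is 8.74-fold. Itgav was below Itgb1 by a mean of -4.20 ± 0.92 (SD, n = 3; limma, adjusted p = 0.00149). Itgb7 was nearer to its partners, and 62.1% of the genes tested passed against it. Itgae was below Itgb7 in 3 of 3 libraries, by -2.99, -0.30 and -1.42, a mean of -1.57 ± 1.35 (SD, n = 3; limma, adjusted p = 0.0389). That call was lost without replicate 1 (mean -0.86; limma, adjusted p = 0.343) and without replicate 3 (limma, adjusted p = 0.0580). Itga4 against Itgb7 did not pass, with -1.91, 0.10 and -1.31, a mean of -1.04 ± 1.03 (SD, n = 3; limma, adjusted p = 0.0933), and passed without replicate 2 (mean -1.61; limma, adjusted p = 0.00877).

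**Figure D3:**
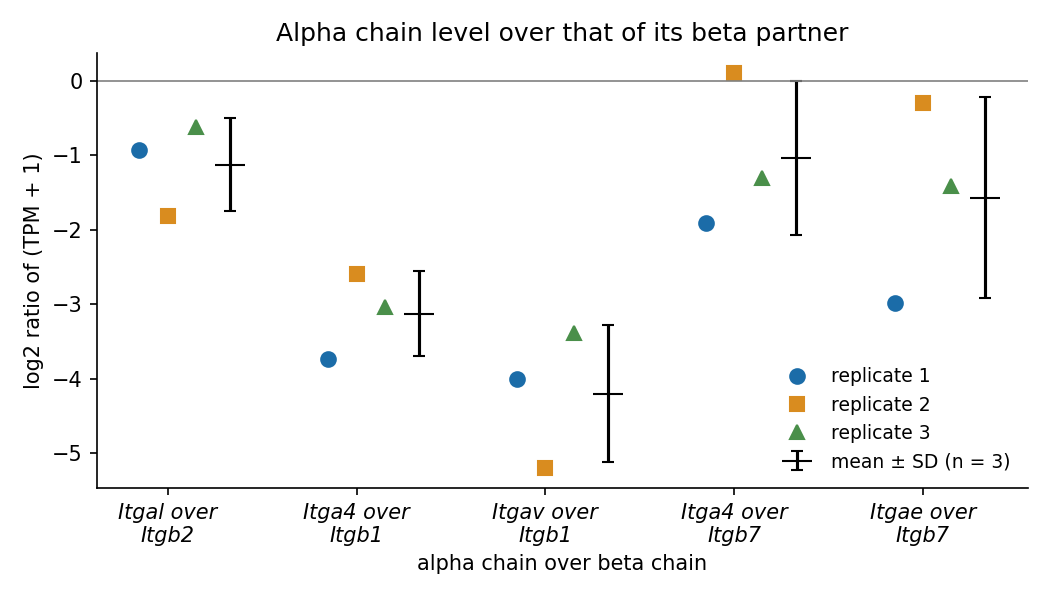
Log2 ratio of (TPM + 1) of an alpha chain over a beta chain it pairs with, for 5 pairs, with 1 symbol per library and the mean with its SD (n = 3) in black. All points lie below 0 except Itga4 over Itgb7 in replicate 2, at 0.10.

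Selplg and Cd44 stood on either side of Itgal and Itgb7. Selplg (chromosome 5 from 113818536 to 113832644, minus strand, 3 exon blocks) had 716, 40 and 432 counts, or 80.2, 72.5 and 49.7 TPM. The mean was 67.4 ± 15.9 TPM (SD, n = 3), above 93.8% of protein-coding genes. Its level depends on the length used, and with the longest annotated transcript as length the mean was 107 TPM. Selplg then stood above Itgb1 (99.8 TPM) and Itgb2 (94.8 TPM). Cd44 (chromosome 2 from 102811141 to 102901665, minus strand, 19 exon blocks) had 386, 17 and 225 counts, or 27.2, 19.4 and 16.3 TPM, a mean of 20.99 ± 5.63 TPM (SD, n = 3). Both were highest in replicate 1 and lowest in replicate 3.

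By mean level the order was Itgb1, Itgb2, Selplg, Itgal, Itgb7, Cd44, Itga4, Itgae and Itgav. Itgb1 and Itgb2 did not differ beyond their spread, with a mean log2 ratio of 0.01 ± 0.09 (SD, n = 3) and Itgb1 higher in 1 of 3 libraries. Itgb2 was above Selplg in 3 of 3 libraries by 0.65 ± 0.13, a direction that turns with the longest transcript as length. Itgal was above Itgb7 in 3 of 3 by 0.95 ± 0.19 (SD, n = 3 each). Selplg over Itgal (0.48 ± 0.69), Itgb7 over Cd44 (0.21 ± 0.35) and Itgae over Itgav (0.54 ± 1.53) had a mean below its SD. Cd44 over Itga4 (0.82 ± 0.69) and Itga4 over Itgae (0.53 ± 0.50) had a mean close to its SD, though the first gene was higher in 3 of 3 libraries. In every library Selplg had rank 3 and Itgal rank 4 of the 9.

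The libraries were compared with each other by a chi-square test of each gene's counts, scaled by TMM, over all 11595 genes with a mean count of at least 10. A gene was called at an adjusted p under 0.05 and a ratio of at least 2 between its highest and lowest library. Of all genes tested 29.5% were called, and of those without an opposite-strand overlap 22.6%. Of the 9 adhesion genes 4 were called, Itgal, Itga4, Itgb7 and Itgae. This test holds counting error only and says how the libraries differ. Without replicate 2 only Itgae was called, with 14.9% of all genes, so the calls of Itgal, Itga4 and Itgb7 rest on 25, 33 and 6 counts in that library. Without replicate 1 the calls were Itgal and Itgav, with 18.0% of 10804 genes called, and without replicate 3 Itgal, Itga4 and Itgae, with 11.8% of 11272 genes called.

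In TPM, Itgae alone of the 9 was lower in replicate 1 than in replicate 3, the 2 deeper libraries. Replicate 1 over replicate 3 gave 1.85 for Itgb2, 1.86 for Itgb1, 1.75 for Itgb7, 1.49 for Itgal, 1.61 for Selplg, 1.67 for Cd44, 1.24 for Itgav and 1.16 for Itga4 in TPM, beside a median of 1.72 over 6544 protein-coding genes without overlap. For Itgae it was 0.522, and 30 of those 6544 genes (0.458%) had a lower ratio. The difference between the 2 libraries was 2.88-fold for Itgae after TMM scaling (chi-square test over 12257 genes, Benjamini-Hochberg adjusted p = 3.61e-07). In the same test Itga4 was also higher in replicate 3, by 1.30-fold (chi-square test, Benjamini-Hochberg adjusted p = 0.0118). Itgb1 and Itgb2 went the other way, higher in replicate 1 by 1.24-fold and 1.23-fold (chi-square test, Benjamini-Hochberg adjusted p = 0.000108 and 0.0011). These p-values hold counting error only. With TPM scaled over genes without an overlap alone, Itgae had 9.85, 36.5 and 29.6 TPM in replicates 1, 2 and 3, while Selplg had 204, 196 and 199 TPM and Cd44 69.5, 52.5 and 65.3 TPM. Itga4 had 23.7, 49.4 and 32.2 TPM, Itgal 185, 79.6 and 196 TPM and Itgav 19.3, 5.84 and 24.5 TPM. Replicate 1 over replicate 3 was then below 1 for Itgae (0.332), Itga4 (0.736), Itgav (0.786) and Itgal (0.948). On that scale the levels of Selplg were nearly equal in all libraries and those of Itgae and Itga4 lowest in replicate 1. The share of counts in overlapped genes, 51.7% in replicate 1 and 66.5% in replicate 3, moved with the lower TPM of the other genes in replicate 3, and this scaling leaves those genes out.

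**Figure D4:**
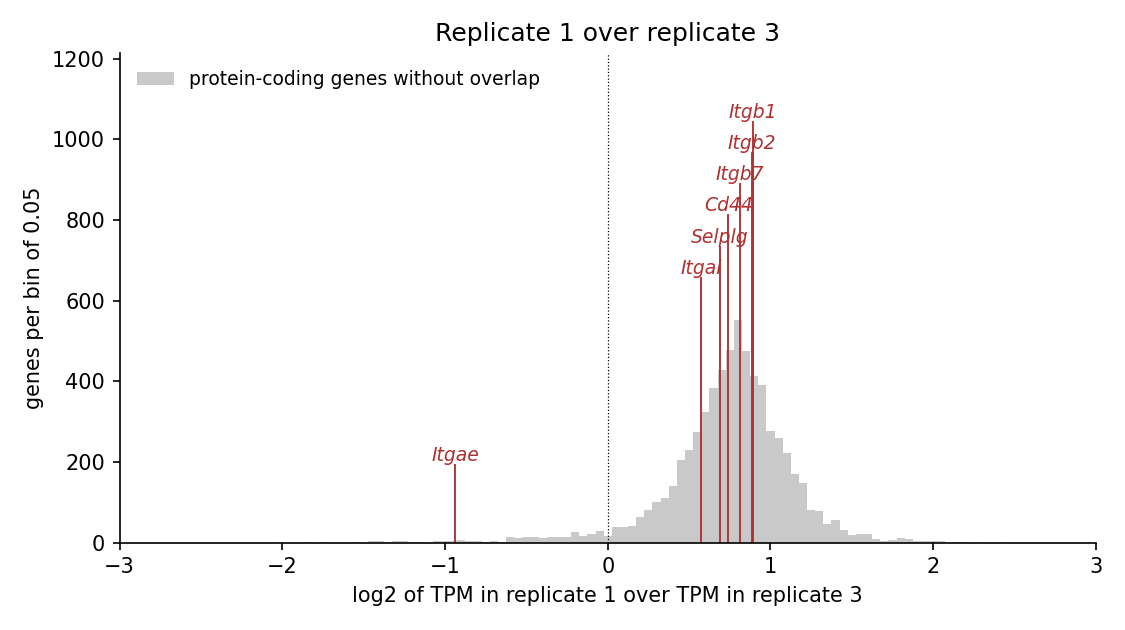
Distribution of the log2 ratio of TPM in replicate 1 over replicate 3 for 6544 protein-coding genes without an opposite-strand overlap (grey bars, genes per bin of 0.05), with the 7 adhesion genes without overlap as red lines. Itgb1, Itgb2, Itgb7, Itgal, Selplg and Cd44 lie within the main peak and Itgae lies far to its left.

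The ligands these integrins bind were counted in the same cells in part. Of all protein-coding genes 47.8% reached 1 TPM, and of 10 ligand genes 5 (50%) did, 3 of them without an opposite-strand overlap. The LFA-1 ligands Icam1 (20.6 ± 6.53 TPM, overlapped on the other strand by Gm47079) and Icam2 (9.73 ± 6.03 TPM) did, as did Tgfb1 (44.25 ± 14.02 TPM), whose latent form binds Itgav integrins, and Spp1, osteopontin (38.4 ± 20.5 TPM; SD, n = 3 each). Icam4 (2.77 ± 2.41 TPM) lies wholly within exons of Gm47079. Vcam1, Cdh1 and Vtn had no count in any library, and Madcam1 had 1, 0 and 1 counts.

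Among the selectins, Sele, the selectin of activated vessel walls, had 0, 0 and 2 counts. Selp had 49, 0 and 27 counts and is overlapped by Gm16548 and Gm16587. Of 10 genes for building selectin ligands on proteins such as PSGL-1, 9 reached 1 TPM and 4 reached 10 TPM. Without replicate 1 or without replicate 2, 8 reached 1 TPM. The sialyltransferase St3gal4 (21.4 ± 9.54 TPM, overlapped) and the tyrosine sulfotransferase Tpst2 (17.07 ± 11.99 TPM) had the highest means. Without replicate 2, where Tpst2 had 11 counts, Tpst2 averaged 10.4 TPM, below B4galt1 at 16.6 TPM and C1galt1c1 at 10.8 TPM. Fut7, the fucosyltransferase of the selectin ligand sugar, had 4, 4 and 4 counts, or 0.812, 13.1 and 0.834 TPM, and its mean was 0.823 TPM without replicate 2. Gcnt1, which makes the branch that carries this sugar, had 3, 0 and 7 counts. Selplg had 716 counts beside these in replicate 1.

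Of 12 genes that act on integrin activation from within the cell, 10 reached 1 TPM and 9 reached 10 TPM. Fermt3, the kindlin of blood cells, had 112 ± 60.6 TPM (overlapped by Trpt1), the small GTPase Rap1b 111 ± 42.0 TPM and talin, Tln1, 43.3 ± 8.38 TPM (overlapped by Creb3; SD, n = 3 each). Fermt2, the kindlin of other tissues, had no count. Of 11 adaptors behind integrins 9 reached 1 TPM. Parvg, the parvin of blood cells, had 37.2 ± 7.92 TPM (SD, n = 3), while Parva and Parvb had no count. Ilk had 145 ± 1.83 TPM, but 76.7% of its exon length overlaps Taf10 on the other strand. Ezr, Msn and Rdx, which tie Cd44 to actin, had 138 ± 44.9, 102.2 ± 26.8 and 71.9 ± 22.6 TPM (SD, n = 3 each). Has3, a hyaluronan synthase, had 216 ± 32.8 TPM (SD, n = 3) from 2597, 165 and 3300 counts, while Has1 and Has2 had no count. Has3 shares 5.52% of its exon length with Chtf8 on the other strand. Its replicate 1 over replicate 3 ratio was 0.766, beside medians of 1.72 and 1.39 over protein-coding genes without and with overlap. The part of the overlap in the Has3 level was not tested. In all, 46 of the 72 listed genes reached 1 TPM, with a median of 3.79 TPM.

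**Figure D5:**
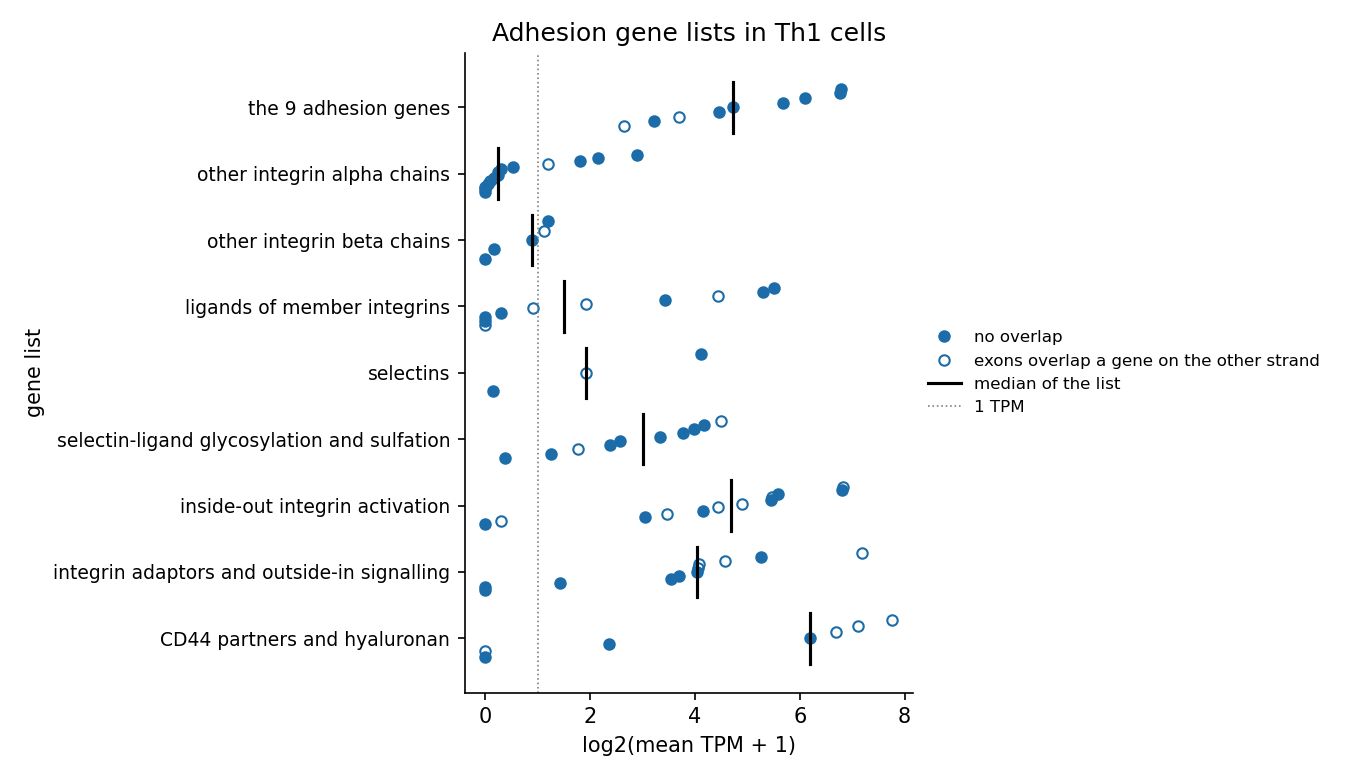
Mean level as log2(mean TPM + 1) of the 9 adhesion genes (top) and of 8 lists of related genes, 1 point per gene, open where exons overlap a gene on the other strand, with the list median as a black bar and 1 TPM as a dotted line. The other integrin chains lie mostly below 1 TPM, and the activation, adaptor and Cd44 partner lists mostly above it.

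The genes whose levels over the 3 libraries were most like those of the 7 adhesion genes without overlap were sought among 16963 protein-coding genes without overlap, by the largest difference of log2(TPM + 1) in any library. Nearest to Itgb1 was Cytip, with 134, 115 and 75.4 TPM and a difference of at most 0.03, and nearest to Itgb2 was Cdc42 (0.06). Itgal was nearest to Mrpl28 (0.07), Itgb7 to Fam98a (0.08), Selplg to Arhgap45 (0.07) and Cd44 to Cnpy3 (0.07). Itgae had no such near gene, the closest being Fancg at 0.34. After it came Cd79a at 0.45, with 3.61, 10.6 and 10.4 TPM in replicates 1, 2 and 3. This likeness spans 3 libraries of 1 cell type and is a description.

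For 5 of the 9 genes, RefSeq gave a start site on GRCm38.p6. The 250 bases before it are shown for Itga4 and for the beta chains it pairs with, which differed in level, read 5′ to 3′ on the strand of the gene. Capitals mark matches on either strand to TGTGGT (RUNX), GGGCGG (SP/KLF) and AGGAAG (ETS). No match overlapped another. TATAAA and CCAAT were searched as well and not found in the 5 windows.

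Itga4 (chr2:79255176-79255425, plus strand): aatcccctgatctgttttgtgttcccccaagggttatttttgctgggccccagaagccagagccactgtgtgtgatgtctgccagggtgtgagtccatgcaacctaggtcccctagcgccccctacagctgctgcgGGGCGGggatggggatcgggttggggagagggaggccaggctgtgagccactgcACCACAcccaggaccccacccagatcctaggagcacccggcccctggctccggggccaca

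Itgb1 (chr8:128685404-128685653, plus strand): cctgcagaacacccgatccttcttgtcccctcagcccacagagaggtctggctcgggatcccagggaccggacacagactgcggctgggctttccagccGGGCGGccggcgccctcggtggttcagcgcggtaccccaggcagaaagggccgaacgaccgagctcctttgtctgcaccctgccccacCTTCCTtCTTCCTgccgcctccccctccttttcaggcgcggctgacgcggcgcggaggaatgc

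Itgb7 (chr15:102231936-102232185, minus strand): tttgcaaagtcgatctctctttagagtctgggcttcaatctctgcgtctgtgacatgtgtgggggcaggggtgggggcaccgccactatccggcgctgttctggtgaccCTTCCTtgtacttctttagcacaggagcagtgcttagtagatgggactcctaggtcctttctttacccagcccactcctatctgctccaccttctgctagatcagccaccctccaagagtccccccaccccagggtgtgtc

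The letters TGTGGT occurred in 1 of the 5 windows, that of Itga4, and in 14.05% of all 32851 windows. GGGCGG occurred in 2 of 5 (Itga4 and Itgb1) and in 32.7% of all, and AGGAAG in 4 of 5 (Itgb1, Itgb7, Itgav and Cd44) and in 29.5% of all. The G and C share was 64.0% for Itga4, 68.0% for Itgb1 and 56.0% for Itgb7, beside a median of 52.4% over all windows. A match is a run of letters and not a binding site.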

How the data were processed

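For each of 3 Th1 libraries the authors deposited raw fragment counts by gene. Per the file headers, featureCounts 1.4.6-p4 counted exons by gene on GENCODE mouse release 13, required both ends to map and used strand setting 1. The assembly was mm10 per the labels; the sources used here name no aligner version. Names came from GENCODE release 21 (GRCm38), which matched 50376 of 50600 genes by identifier. The 9 genes and all lists were chosen with earlier results of these data known, and named genes are the list genes, overlapping partners and nearest genes.

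From the counts and the deposited exon length, TPM was computed. Overlap on the other strand was found with bedtools 2.31.1 and held for 8189 genes. Intervals are exact Poisson at 95% and cover counting error only. Ratios within libraries were tested with limma 3.58.1, two-sided, over protein-coding genes of at least 1 TPM, with a pseudocount of 1 TPM, which shrinks ratios of low genes. Libraries were compared by a chi-square test with TMM from edgeR 4.0.16 and 3 counts as a floor; DESeq2 1.42.0 size factors were an alternative. Both tests were run on simulated data, with Poisson counts for the chi-square test and a reference gene without spread for limma. Such data cannot show how the tests behave under the spread between these libraries. An exact sign-flip test of 3 libraries cannot go below p = 0.25 and was not used. No value column was left unused (0).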

Additional observations from a re-analysis of the deposited data

How the results depend on the processing

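With the longest transcript as length, Itgal over Itgb2 was -0.84 and Itgae over Itgb7 -1.36, and neither passed (limma, adjusted p = 0.0674 and 0.0654). With a pseudocount of 0.1 TPM, Itgae over Itgb7 was -1.70 and did not pass (limma, adjusted p = 0.105). Leaving out 1 library at a time, the mean log2 ratio ran from -1.38 to -0.78 for Itgal over Itgb2, from -1.61 to -0.60 for Itga4 over Itgb7 and from -2.21 to -0.86 for Itgae over Itgb7. Itga4 and Itgav stayed below Itgb1 and past the threshold in each of these fits. With TMM over genes without an opposite-strand overlap, 1074 of 6933 genes (15.5%) and 2 of the 7 adhesion genes tested (Itgal and Itgae) were called as differing between libraries, against 3415 of 11595 genes (29.5%) and 4 of 9. Leaving out 1 library gave 1332 to 1941 genes (18.0%, 14.9% and 11.8% of those tested without replicates 1, 2 and 3) and 1 to 3 adhesion genes. DESeq2 size factors gave 3374 of 11595 genes (29.1%) and 3 adhesion genes; the call lost was Itgb7 (chi-square test, adjusted p = 0.103), also lost over all genes with any count (adjusted p = 0.0752). Scaling TPM over genes without an overlap or over protein-coding genes raised the means of all 9, for Itgb1 to 319 and 202 TPM. The cause of these changes was not tested, beyond the fewer genes or libraries that enter. Replicate 2, with 266790 counts, limits every statement about genes with few counts. No paired analysis was possible because all libraries belong to 1 group, so there are no groups whose samples could be paired.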
